A study of Mus musculus with 2 samples.

Results

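Ccl3, Ccl4 and Ccl5 encode chemokines, small secreted proteins that draw leukocytes towards their source, and Ccr1 encodes a receptor for them. These 4 genes were chosen by symbol from the gene table of both libraries, which lists 31053 genes, and each of the 4 had a single entry there. They were followed by droplet single-cell RNA sequencing in cells of the colonic lamina propria, the connective tissue under the gut epithelium. One library came from male C57BL/6 mice labelled deficient in lncly6c (1700016P04Rik), a long noncoding RNA gene deleted whole by CRISPR-Cas9 editing of zygotes, and one from male C57BL/6 mice labelled wild type. All mice were 6 to 8 weeks old, were kept free of specific pathogens and had no other treatment named in the labels, which give no number of animals per library. The series asks how lncly6c bears on macrophage differentiation.

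The libraries are called deficient-labelled and wild-type-labelled because the deposited files are named with the genotypes the other way round, and by those names every direction below would be exchanged. The deleted gene gave no check, since no unique molecular identifier (UMI, the tag that marks one captured RNA molecule) was counted for it in either library. There were 6133 barcodes and 54773076 UMIs in the deficient-labelled library and 3020 barcodes and 23384895 UMIs in the wild-type-labelled library, with 7 barcode sequences in common. Filtering kept 5890 cells of the deficient-labelled library with a median of 7849 UMIs and 2610 cells of the wild-type-labelled library with a median of 6205 UMIs. Each group was 1 library, so no test between groups could be made. The intervals given are 95% intervals that cover counting error only and say nothing of the spread between animals or preparations. Those of levels and ratios take each UMI as independent, so they also leave out the spread between cells.

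As background, Ccl3 and Ccl4 are made by monocytes, macrophages, neutrophils and cytotoxic lymphocytes, and both are rapidly induced when pattern-recognition or antigen receptors are triggered. Ccl5 is a late product of activated T cells and a standing product of natural killer cells and memory CD8 T cells. Ccr1, a G protein-coupled receptor of myeloid cells, binds Ccl3 and Ccl5 strongly and Ccl4 weakly. In the gut, blood monocytes with high Ly6C enter the lamina propria and mature there into resident macrophages, and chemokines of this family take part in recruiting leukocytes to the tissue.

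The 3 ligand genes lie in the CC chemokine cluster of chromosome 11 and the receptor gene lies on chromosome 9 (mm10, GENCODE annotation). Ccl3 (ENSMUSG00000000982) spans chr11:83647844-83649355 on the minus strand, Ccl4 (ENSMUSG00000018930) chr11:83662584-83664683 on the plus strand and Ccl5 (ENSMUSG00000035042) chr11:83525778-83530518 on the minus strand. Ccr1 (ENSMUSG00000025804) spans chr9:123962124-123968692 on the minus strand, and its coding sequence lies in 1 of its 2 exons. The ligands have 3 coding exons each, and 13228 bases separate Ccl3 from Ccl4. The feature that gives CC chemokines their name is a pair of adjacent cysteine codons, which was found once, in frame, in each ligand. It is shown here, codons in capitals, within 60 bases of coding sequence of each GENCODE transcript, because the likeness of these genes decides whether short reads can tell them apart.
Ccl3: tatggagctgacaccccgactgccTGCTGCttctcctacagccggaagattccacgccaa
Ccl4: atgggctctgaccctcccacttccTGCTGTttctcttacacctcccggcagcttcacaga
Ccl5: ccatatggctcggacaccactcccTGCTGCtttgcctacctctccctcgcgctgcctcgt
The cysteine codons are 34 and 35 of Ccl3 and of Ccl4 and 33 and 34 of Ccl5, counted from the start codon. The coding sequences of Ccl3 and Ccl4 were 66.7% identical, those of Ccl3 and Ccl5 59.9% and those of Ccl4 and Ccl5 59.1%. The longest stretch without a mismatch that the Ccl3 and Ccl4 transcripts shared was 9 bases, as it was for Ccl4 and Ccl5, and for Ccl3 and Ccl5 it was 13 bases. A read longer than these stretches differs between the members.

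Promoter sequence was at hand for Ccl3 and Ccr1, as RefSeq windows (GRCm38.p6) from 250 bases before to 50 bases after the gene start. They are shown because Ccl3 and Ccr1 differed in their ratio between the libraries in the same macrophage-like cells, as described further on. Capitals mark matches, on either strand, to TTNNGNAA, a short form of the C/EBP motif of myeloid genes, and to the NF-kB consensus. The windows are chr11:83649329-83649628 for Ccl3 and chr9:123968643-123968942 for Ccr1, both on the minus strand and printed in the direction of transcription.
Ccl3: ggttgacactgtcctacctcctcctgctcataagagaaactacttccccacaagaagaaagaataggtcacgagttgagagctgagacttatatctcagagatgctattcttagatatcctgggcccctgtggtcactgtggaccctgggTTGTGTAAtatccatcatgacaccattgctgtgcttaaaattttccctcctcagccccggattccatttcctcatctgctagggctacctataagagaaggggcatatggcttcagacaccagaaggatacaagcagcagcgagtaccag
Ccr1: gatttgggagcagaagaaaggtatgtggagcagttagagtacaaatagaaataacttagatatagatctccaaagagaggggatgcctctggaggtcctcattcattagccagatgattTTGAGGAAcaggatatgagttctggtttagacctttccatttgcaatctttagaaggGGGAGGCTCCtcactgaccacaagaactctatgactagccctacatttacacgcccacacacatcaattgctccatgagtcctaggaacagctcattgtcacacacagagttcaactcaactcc
The C/EBP letters occurred once in each window, beginning at base -100 of Ccl3 and base -131 of Ccr1, and 40.7% of the 32851 promoter windows hold them. The NF-kB consensus occurred once in the Ccr1 window, beginning at base -74, did not occur in the Ccl3 window, and occurs in 8.46% of all windows. TGANTCA, the AP-1 motif, and TATAAA, the TATA box, occurred in neither window and occur in 7.81% and 13.6% of all windows. The 2 matched motifs do not overlap in the Ccr1 window. The part of these motifs in the ratios between the libraries was not tested.

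Cells were assigned to 22 classes by marker genes that hold none of the 4 members, each class being named "-like" because it rests on RNA alone. No class was given to 1217 of the 5890 kept cells of the deficient-labelled and to 523 of the 2610 of the wild-type-labelled library. At least 50 cells in each library were found for 10 classes, which are compared below. NK cell or ILC1-like cells, with 106 cells in the deficient-labelled and 39 in the wild-type-labelled library, are given by level only. The markers led the classes that matter here: C1qc, C1qa and C1qb, the subunits of complement C1q, headed the macrophage-like cells, and Chil3 and Ly6c2 the Ly6C-high monocyte-like cells. Levels are given in CPM, the UMIs of the gene over all UMIs of the cells of the class, scaled to 1000000. Droplets also carry free RNA, and B cell-like cells serve below as the class of low level, although B cells can make Ccl3 and Ccl4 once activated.

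Among these 11 classes Ccl3 was at its highest in neutrophil-like cells, at 3508 CPM (3335 to 3688) in the deficient-labelled and 4147 CPM (4015 to 4281) in the wild-type-labelled library. NK cell or ILC1-like cells came next, with 2164 CPM (2037 to 2296) and 3243 CPM (2996 to 3504) in the deficient-labelled and the wild-type-labelled library. In the deficient-labelled library macrophage-like, Ly6C-high monocyte-like, eosinophil-like and Ly6C-low monocyte-like cells followed at 921, 912, 893 and 881 CPM with overlapping intervals. In the wild-type-labelled library these 4 classes were spread out, with macrophage-like cells at 1929 CPM, Ly6C-low monocyte-like cells at 1649 CPM, eosinophil-like cells at 1600 CPM and Ly6C-high monocyte-like cells at 1020 CPM. Only the Ly6C-low monocyte-like and eosinophil-like intervals overlapped there. Dendritic cell-like classes lay between 53.7 and 113 CPM in the deficient-labelled and between 63.4 and 369 CPM in the wild-type-labelled library, and B cell-like cells had 64.4 and 55.3 CPM of it.

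Ccl4 had a different order, with macrophage-like cells far above monocyte-like cells. It was highest in NK cell or ILC1-like cells, at 5247 CPM (5048 to 5451) in the deficient-labelled and 12383 CPM (11897 to 12884) in the wild-type-labelled library. One cell held 22.5% of the 2444 Ccl4 UMIs of that class in the wild-type-labelled library. Macrophage-like cells had 2422 CPM (2382 to 2462) in the deficient-labelled and 7396 CPM (7278 to 7515) in the wild-type-labelled library. In the deficient-labelled library their interval overlapped that of neutrophil-like cells, at 2450 CPM (2305 to 2601). In the wild-type-labelled library neutrophil-like cells, at 2682 CPM (2577 to 2790), lay well below macrophage-like cells. B cell-like cells had 73.6 CPM in the deficient-labelled and 100 CPM in the wild-type-labelled library.

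Among the 11 classes Ccl5 was highest in NK cell or ILC1-like, T cell-like and mature migratory dendritic cell-like cells. NK cell or ILC1-like cells had 14677 CPM (14344 to 15016) in the deficient-labelled and 14941 CPM (14407 to 15490) in the wild-type-labelled library, the highest level of any member among the 11 classes. T cell-like cells had 1114 and 1363 CPM, and mature migratory dendritic cell-like cells had 807 and 1837 CPM, each in the deficient-labelled and then the wild-type-labelled library. Macrophage-like cells had 306 and 483 CPM in the same order. Neutrophil-like cells had 50.3 CPM from 22 UMIs in the deficient-labelled and 15.3 CPM from 14 UMIs in the wild-type-labelled library, near the 18.1 and 7.53 CPM of B cell-like cells.

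Ccr1 was a gene of granulocytes and mononuclear phagocytes. Neutrophil-like cells had 1111 CPM (1014 to 1214) in the deficient-labelled and 1915 CPM (1827 to 2007) in the wild-type-labelled library, and eosinophil-like cells had 557 CPM (423 to 720) and 907 CPM (810 to 1014). Macrophage-like cells had 407 and 399 CPM, Ly6C-high monocyte-like cells 287 and 322 CPM and cDC2-like cells 190 and 172 CPM in the deficient-labelled and then the wild-type-labelled library. With 19.0 and 22.1 CPM in cDC1-like cells it was no higher there than the 32.0 and 30.1 CPM of B cell-like cells. Thus NK cell or ILC1-like cells held the highest Ccl5 and Ccl4 but, at 51.8 CPM from 26 UMIs and 10.1 CPM from 2 UMIs, little Ccr1. Neutrophil-like cells held the highest Ccl3 and Ccr1 and little Ccl5.

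**Figure D1:**
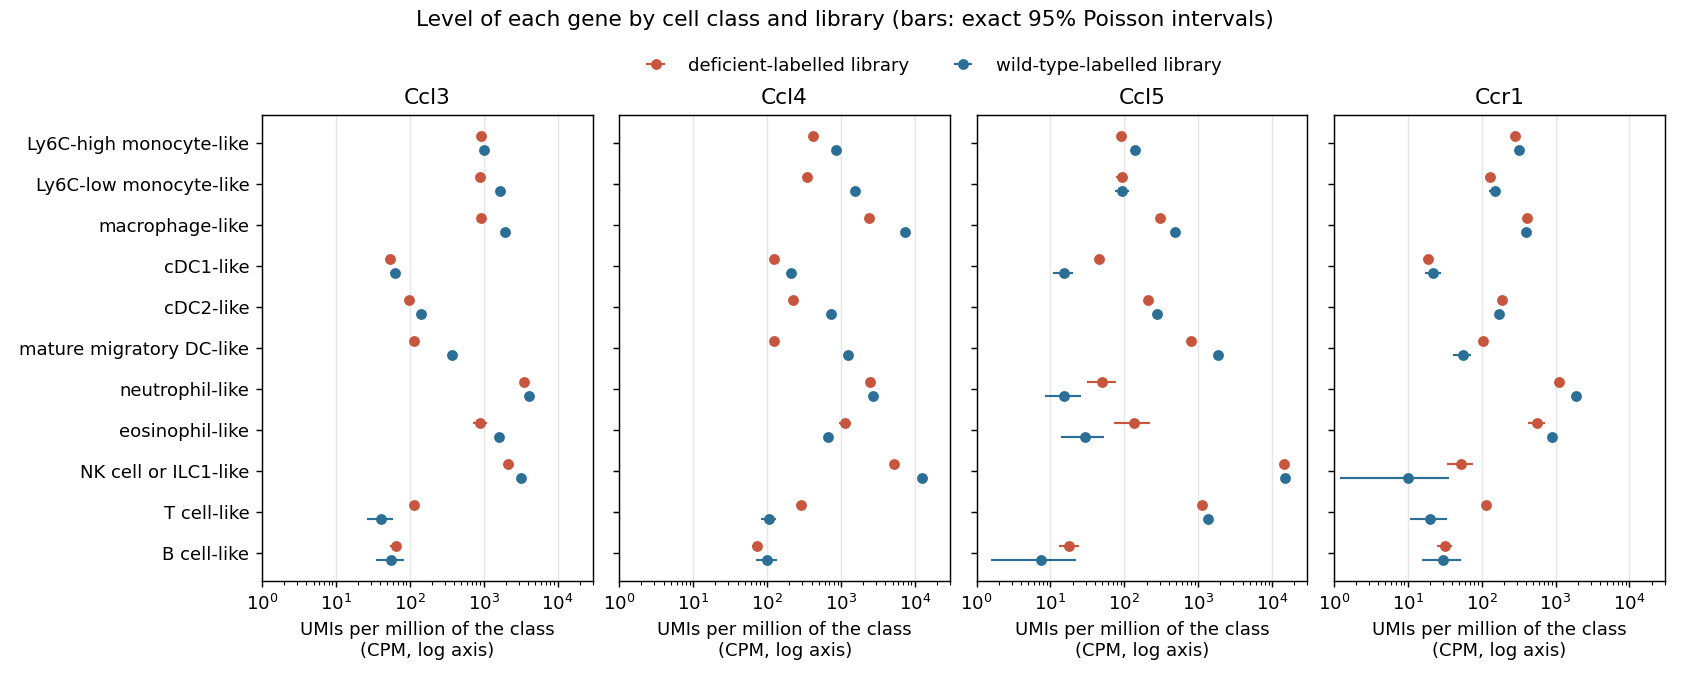
Level of Ccl3, Ccl4, Ccl5 and Ccr1 in CPM (UMIs of the gene per 1000000 UMIs, log axis) in 11 cell classes, with the deficient-labelled library in red above the wild-type-labelled library in blue and exact Poisson 95% intervals as bars. Ccl4 in macrophage-like cells stands at 2422 and 7396 CPM in the deficient-labelled and the wild-type-labelled library, while Ccr1 in the same cells stands at 407 and 399 CPM.

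The classes that held most of the RNA of each gene follow from the level, the size of the cells' RNA pool and the number of cells. Macrophage-like cells held 45.9% of the Ccl4 UMIs of the deficient-labelled and 43.8% of those of the wild-type-labelled library. For Ccl3 they held 26.9% and 24.7%, and Ly6C-high monocyte-like cells held 19.8% and 14.7%. Neutrophil-like and eosinophil-like cells together held 8.2% of the Ccl3 UMIs in the deficient-labelled and 27.2% in the wild-type-labelled library. These granulocyte-like classes were 2.68% and 1.49% of kept cells in the deficient-labelled and 11.3% and 10.2% in the wild-type-labelled library. Over all kept cells Ccl3 had 364 and 700 CPM, Ccl4 561 and 1514 CPM, Ccl5 375 and 438 CPM and Ccr1 175 and 256 CPM, in the deficient-labelled and then the wild-type-labelled library. In such totals the mix of classes and the level within a class cannot be told apart, so the comparisons below are made within classes.

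**Figure D2:**
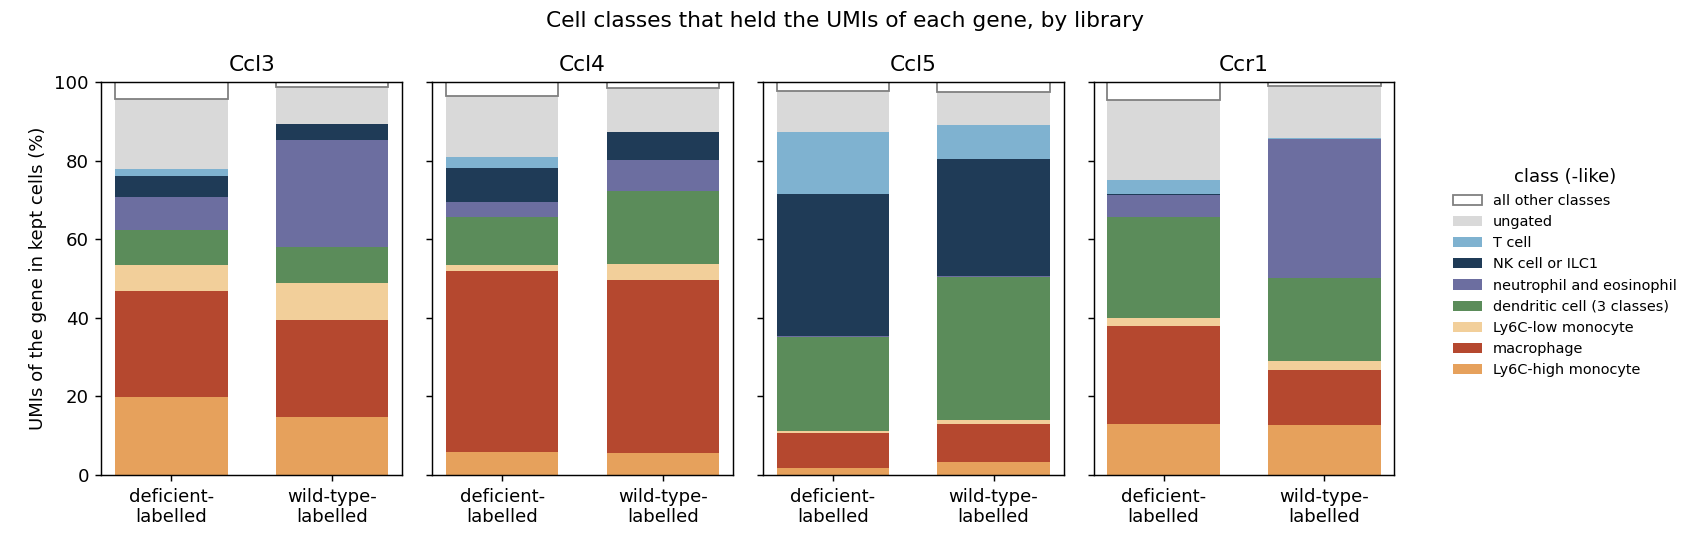
Percent of each gene's UMIs in kept cells that each cell class held, as stacked bars with the deficient-labelled library left of the wild-type-labelled library. Macrophage-like cells (dark red) held 45.9% and 43.8% of Ccl4 in the deficient-labelled and the wild-type-labelled library, and NK cell or ILC1-like cells (dark blue) held 36.1% and 29.6% of Ccl5.

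In Ly6C-high monocyte-like and macrophage-like cells together, the cells the series asks about, all 3 ligands had a lower CPM in the deficient-labelled library and the receptor was at the same level within counting error. Ccl4 had 1565 CPM in the 1173 cells of the deficient-labelled and 3933 CPM in the 470 cells of the wild-type-labelled library, a log2 ratio of -1.33 (-1.36 to -1.30). Ccl3 had 917 and 1448 CPM in the same order, a log2 ratio of -0.66 (-0.70 to -0.61), which fell within 1.5-fold as a mean over cells (-0.57) and by cluster majority (-0.58), where each cell takes the commonest class of its cluster. Ccl5 had 213 and 301 CPM, a log2 ratio of -0.50 (-0.60 to -0.39). The share of cells with a Ccl5 UMI went the other way, at 33.9% (31.2 to 36.7) and 27.4% (23.5 to 31.7). After each cell was thinned to 1000 UMIs these shares were 12.2% (10.4 to 14.3) and 14.6% (11.5 to 18.2), with overlapping intervals. The 10% of cells with the most Ccl5 held 81.8% and 85.9% of its UMIs. Ccr1 had 356 and 359 CPM, a log2 ratio of -0.01 (-0.10 to 0.08). Thus 2 of the 4 members, Ccl3 and Ccl4, were over 1.5-fold lower, where 5.74% of the 9090 measured genes were over 1.5-fold lower and 7.38% over 1.5-fold higher. The median log2 ratio of all measured genes was 0.01.

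The gap was wider in macrophage-like cells, of which the deficient-labelled library held 605 and the wild-type-labelled library 222, with median depths of 8015 and 8105 UMIs. Ccl4 had a log2 ratio of -1.61 (-1.64 to -1.58), from 14007 UMIs in the deficient-labelled and 15084 UMIs in the wild-type-labelled library. Ccl3, at 921 and 1929 CPM, had a log2 ratio of -1.07 (-1.13 to -1.01), and Ccl5, at 306 and 483 CPM, one of -0.66 (-0.77 to -0.55), which was -0.40 as a mean over cells and -0.55 by cluster majority. Ccr1, at 407 and 399 CPM, had a log2 ratio of 0.03 (-0.09 to 0.15). In this class 3 of the 4 members were over 1.5-fold lower, beside 6.08% of all 7925 measured genes lower and 8.35% higher by that fold.

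The Ccl4 gap ran through the whole range of macrophage-like cells rather than a few of them. The median cell had 6.54 Ccl4 UMIs per 10000 UMIs in the deficient-labelled and 28.5 in the wild-type-labelled library, and the cell at the 90th percentile had 85.6 and 242. Cells with over 50 Ccl4 UMIs per 10000 were 16.9% of the deficient-labelled and 39.2% of the wild-type-labelled macrophage-like cells. After each cell was thinned to 1000 UMIs, 49.8% (45.7 to 54.0) of the 586 cells deep enough in the deficient-labelled and 76.3% (70.0 to 81.9) of the 211 in the wild-type-labelled library had a Ccl4 UMI. Without thinning these shares were 74.4% and 87.4%. B cell-like cells, with median depths of 3559 and 4394 UMIs, gave 6.44% and 8.33% thinned and 14.9% and 16.5% unthinned. For Ccl3 the shares of macrophage-like cells with a UMI were close together, at 74.2% and 76.1%, and the gap lay in the cells with much of it: 14.5% of the deficient-labelled and 27.9% of the wild-type-labelled cells had over 20 Ccl3 UMIs per 10000. No single macrophage-like cell held more than 9.03% of the UMIs of any member in its library.

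**Figure D3:**
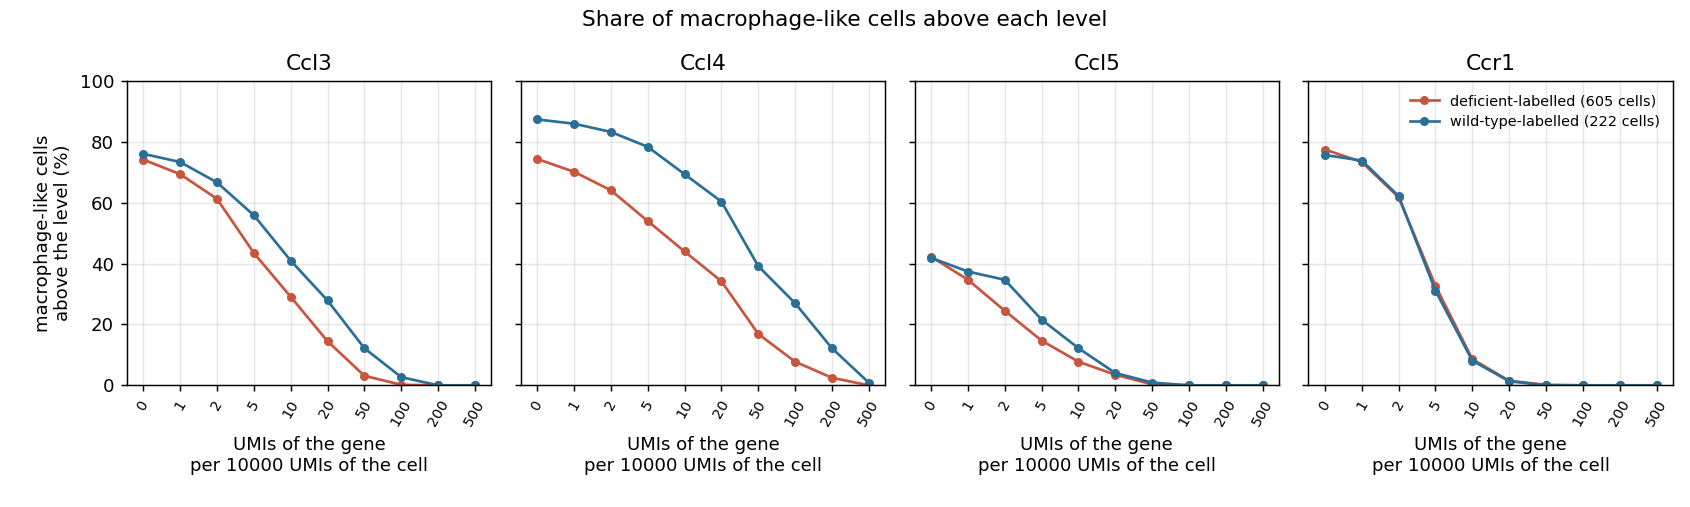
Percent of macrophage-like cells (vertical axis) with more than a given number of UMIs of the gene per 10000 UMIs of the cell (horizontal axis, unevenly spaced levels), for 605 cells of the deficient-labelled library in red and 222 cells of the wild-type-labelled library in blue. The Ccl4 curves are apart at every level up to 200, with 34.2% and 60.4% of cells above 20, and the Ccr1 curves lie on each other.

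Clustering the cells without the 4 genes gave 29 clusters, and the gap held in each part of the macrophage-like class. In cluster 5, led by Mmp13, a matrix metalloproteinase, and by Pf4 and C1qc, Ccl4 had 3600 CPM in 350 cells of the deficient-labelled and 10724 CPM in 131 cells of the wild-type-labelled library, a log2 ratio of -1.57 (-1.61 to -1.54). In cluster 6, led by the cytokine genes Il1a and Inhba and by Ptgs2 and Il10, it had 1185 CPM in 130 cells and 4058 CPM in 49 cells, a log2 ratio of -1.78 (-1.87 to -1.68). In the macrophage-like cells of all other clusters it had 1091 and 3435 CPM, a log2 ratio of -1.65 (-1.76 to -1.55). Ccl3 had log2 ratios of -1.19, -0.65 and -0.62 in cluster 5, cluster 6 and the rest. Ccr1 had -0.08 (-0.23 to 0.07), -0.08 (-0.33 to 0.17) and 0.43 (0.16 to 0.71), the last from 422 CPM in the deficient-labelled and 313 CPM in the wild-type-labelled library.

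Ly6C-high monocyte-like cells, 568 in the deficient-labelled and 248 in the wild-type-labelled library, had most of the Ccl4 difference outside their main cluster. Over the whole class Ccl4 had 416 CPM in the deficient-labelled and 855 CPM in the wild-type-labelled library, a log2 ratio of -1.04 (-1.13 to -0.95). In cluster 1, led by Chil3 and Ly6c2, which held 419 and 158 of these cells, it had 367 and 422 CPM, a log2 ratio of -0.20 (-0.34 to -0.06). In the remaining 149 and 90 cells it had 580 and 1852 CPM, a log2 ratio of -1.68 (-1.82 to -1.53). Ccl3 had a log2 ratio of -0.16 (-0.24 to -0.09) and Ccr1 one of -0.17 (-0.30 to -0.03) over the class, both from levels that differed little, 912 and 1020 CPM for Ccl3 and 287 and 322 CPM for Ccr1. Ccl5 had 89.3 and 139 CPM, a log2 ratio of -0.63 (-0.85 to -0.42), but 1 cell held 30.5% of the 318 Ccl5 UMIs of the wild-type-labelled library, and the ratio was -0.19 without the top 1% of cells and -0.28 by cluster majority. In cluster 1 the direction of Ccl5 was the opposite, with 62.6 CPM from 207 UMIs in the deficient-labelled and 11.9 CPM from 19 UMIs in the wild-type-labelled library, a log2 ratio of 2.40 (1.72 to 3.16). Over the class 2 of the 4 members were over 1.5-fold lower, beside 6.72% of measured genes lower and 8.19% higher.

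Markers of other classes in these phagocyte-like cells differed in both directions. In macrophage-like cells the 5 NK cell or ILC1 markers summed to 2.07 CPM in the deficient-labelled and 0.490 CPM in the wild-type-labelled library, with Ncr1 at 0 in both, and the 7 neutrophil markers to 489 and 279 CPM. The 7 plasma cell markers summed to 517 and 155 CPM, the 6 eosinophil markers to 25.2 and 79.9 CPM and the 8 Ly6C-high monocyte markers to 781 and 1257 CPM. Cxcr2 was the one neutrophil marker at 0, in the wild-type-labelled library. The 8 macrophage markers in Ly6C-high monocyte-like cells summed to 1996 CPM in the deficient-labelled and 1469 CPM in the wild-type-labelled library. H2-Ab1, an MHC class II chain that increases as gut monocytes mature, had 1989 and 1083 CPM in Ly6C-high monocyte-like and 9238 and 8102 CPM in macrophage-like cells, in the deficient-labelled and then the wild-type-labelled library. The part of these differences in the chemokine ratios was not tested.

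Ly6C-low monocyte-like cells, the patrolling form, numbered 200 in the deficient-labelled and 115 in the wild-type-labelled library. Ccl4 had 345 CPM in the deficient-labelled and 1549 CPM in the wild-type-labelled library, a log2 ratio of -2.17 (-2.31 to -2.02). Ccl3 had 881 and 1649 CPM, a log2 ratio of -0.90 (-1.01 to -0.80). Both were over 1.5-fold lower, beside 7.87% of measured genes lower and 10.3% higher. Ccl5, at 92.3 and 94.2 CPM, and Ccr1, at 129 and 151 CPM, had intervals that include no difference, and 1 cell held 48.3% of the Ccl5 UMIs of the wild-type-labelled library. With the top 1% of cells left out the Ccl5 ratio was 1.18 (0.56 to 1.85), over 1.5-fold higher. With the class taken from the cluster majority, which left 91 and 84 cells, the Ccl4 ratio was -0.78 (-0.94 to -0.62). S100a8, a neutrophil gene, had 185 CPM in the deficient-labelled and 797 CPM in the wild-type-labelled library in this class, and its part in the ratio was not tested.

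In each of the 3 dendritic cell-like classes Ccl4 was lower in the deficient-labelled library by over 1.5-fold. cDC2-like cells, 824 in the deficient-labelled and 431 in the wild-type-labelled library, had 227 and 723 CPM of Ccl4, a log2 ratio of -1.67 (-1.74 to -1.60), and Ccl4 was the 1 member over 1.5-fold lower, beside 4.95% of measured genes lower and 5.77% higher. In their cluster 4, led by Retnla and Mgl2, Ccl4 had 445 CPM in the deficient-labelled and 1856 CPM in the wild-type-labelled library, a log2 ratio of -2.06 (-2.16 to -1.97). In their cluster 0, led by Plet1 and Cd7, it had 78.6 and 299 CPM, a log2 ratio of -1.93 (-2.11 to -1.75). In cluster 10, led by the heat shock genes Hspa1a and Hspa1b, and in cluster 11, led by the proliferation genes Pclaf and Top2a, the ratios were smaller, at -0.56 (-0.82 to -0.29) and -0.50 (-0.79 to -0.21). Ccl5 went both ways: in cluster 4 it had 491 and 862 CPM, a log2 ratio of -0.81 (-0.92 to -0.70), and in cluster 11 it had 203 and 77.8 CPM, a log2 ratio of 1.39 from 378 and 65 UMIs. Outside the 4 named clusters it had 183 and 106 CPM, a log2 ratio of 0.79 (0.11 to 1.54). Ccl3 in cDC2-like cells had a log2 ratio of -0.52 (-0.65 to -0.39), within 1.5-fold. By cluster it had -1.45 (-1.66 to -1.23) in cluster 4, -0.34 in cluster 0, -0.16 in cluster 10 and 0.41 (0.04 to 0.80) in cluster 11. Ccr1 in cDC2-like cells had a log2 ratio of 0.14 (0.03 to 0.25). In cluster 10 it had -0.67 (-1.30 to -0.04) from 49 and 41 UMIs, against 0.23, 0.14 and 0.16 in clusters 0, 4 and 11.

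Mature migratory dendritic cell-like cells, which have taken up the program for travel to lymph nodes, gave the largest Ccl4 ratio of the compared classes. Their 224 cells in the deficient-labelled library had 123 CPM and their 67 cells in the wild-type-labelled library had 1232 CPM, a log2 ratio of -3.33 (-3.50 to -3.15), with 26.0% of the 1203 UMIs of the wild-type-labelled library in 1 cell. Ccl3 had 113 and 369 CPM, a log2 ratio of -1.71 (-1.93 to -1.49), with 23.3% of the wild-type-labelled UMIs in 1 cell. As a mean over cells the Ccl4 ratio was -2.65, and by cluster majority the Ccl3 ratio was -0.96. Ccl5 had 807 and 1837 CPM, a log2 ratio of -1.19 (-1.28 to -1.10). Ccr1 went the other way, with 105 CPM in the deficient-labelled and 55.3 CPM in the wild-type-labelled library, a log2 ratio of 0.92 (0.50 to 1.37) from 298 and 54 UMIs. Here 3 members were over 1.5-fold lower and 1 over 1.5-fold higher, beside 7.66% of measured genes lower and 16.8% higher, and the median of all genes was 0.12. Most of the ligand RNA sat in few cells: the shares of cells with a Ccl4 UMI after thinning were 9.46% (5.95 to 14.1) in the deficient-labelled and 21.2% (12.1 to 33.0) in the wild-type-labelled library.

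cDC1-like cells, 445 in the deficient-labelled and 133 in the wild-type-labelled library, had little of any member. Ccl4 had 124 and 213 CPM, a log2 ratio of -0.78 (-0.93 to -0.63), and 1 cell held 21.5% of the UMIs in the wild-type-labelled library. Ccl5 had 45.5 CPM from 356 UMIs in the deficient-labelled, 30.1% of them in 1 cell, and 15.1 CPM from 41 UMIs in the wild-type-labelled library, a log2 ratio of 1.59 (1.12 to 2.09). B cell-like cells, the class of low level, had 18.1 and 7.53 CPM of Ccl5 in the same order, and the part of free RNA was not tested. In cDC1-like cells 1 member was thus over 1.5-fold lower and 1 higher, beside 6.68% of measured genes lower and 5.47% higher. Ccl3 and Ccr1 had intervals that include no difference.

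In granulocyte-like cells of the deficient-labelled library it was Ccr1, and not Ccl4, that was over 1.5-fold lower. In neutrophil-like cells, 158 in the deficient-labelled and 296 in the wild-type-labelled library with median depths of 2117.5 and 2936.5 UMIs, Ccl4 had 2450 and 2682 CPM, a log2 ratio of -0.13 (-0.24 to -0.03). Ccl3 had a log2 ratio of -0.24 (-0.33 to -0.16). Ccr1 had a log2 ratio of -0.79 (-0.93 to -0.64) and was the 1 member over 1.5-fold lower, beside 11.3% of measured genes lower and 16.7% higher. S100a8, the most abundant neutrophil marker, had 18152 CPM in the deficient-labelled and 28561 CPM in the wild-type-labelled library in this class and H2-Ab1, which neutrophils largely lack, 2957 and 601 CPM, and their part in the Ccr1 ratio was not tested. As a mean over cells the Ccr1 ratio was -0.54.

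Eosinophil-like cells, 88 in the deficient-labelled and 265 in the wild-type-labelled library, were the shallowest class, with medians of 790.5 and 1156 UMIs. Of their markers, Serpinb2 was seen in 92.6%, Ccr3 in 75.9% and Alox15 in 50.4% of the cells of both libraries. Siglecf was seen in 20.7%, Il5ra in 3.97% and Epx in no cell, and Retnlg, a neutrophil marker, was among their leading genes. Ccl3 had 893 and 1600 CPM, a log2 ratio of -0.84 (-1.17 to -0.52), and Ccr1, at 557 and 907 CPM, one of -0.70 (-1.13 to -0.30). Ccl4 went the other way, with 1152 CPM from 120 UMIs in the deficient-labelled, 31.7% of them in 1 cell, and 667 CPM from 230 UMIs in the wild-type-labelled library, a log2 ratio of 0.79 (0.46 to 1.11). These were 2 members lower and 1 higher by over 1.5-fold, beside 18.1% of measured genes lower and 13.1% higher. H2-Ab1 had 2621 and 510 CPM here, and its part was not tested.

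**Figure D4:**
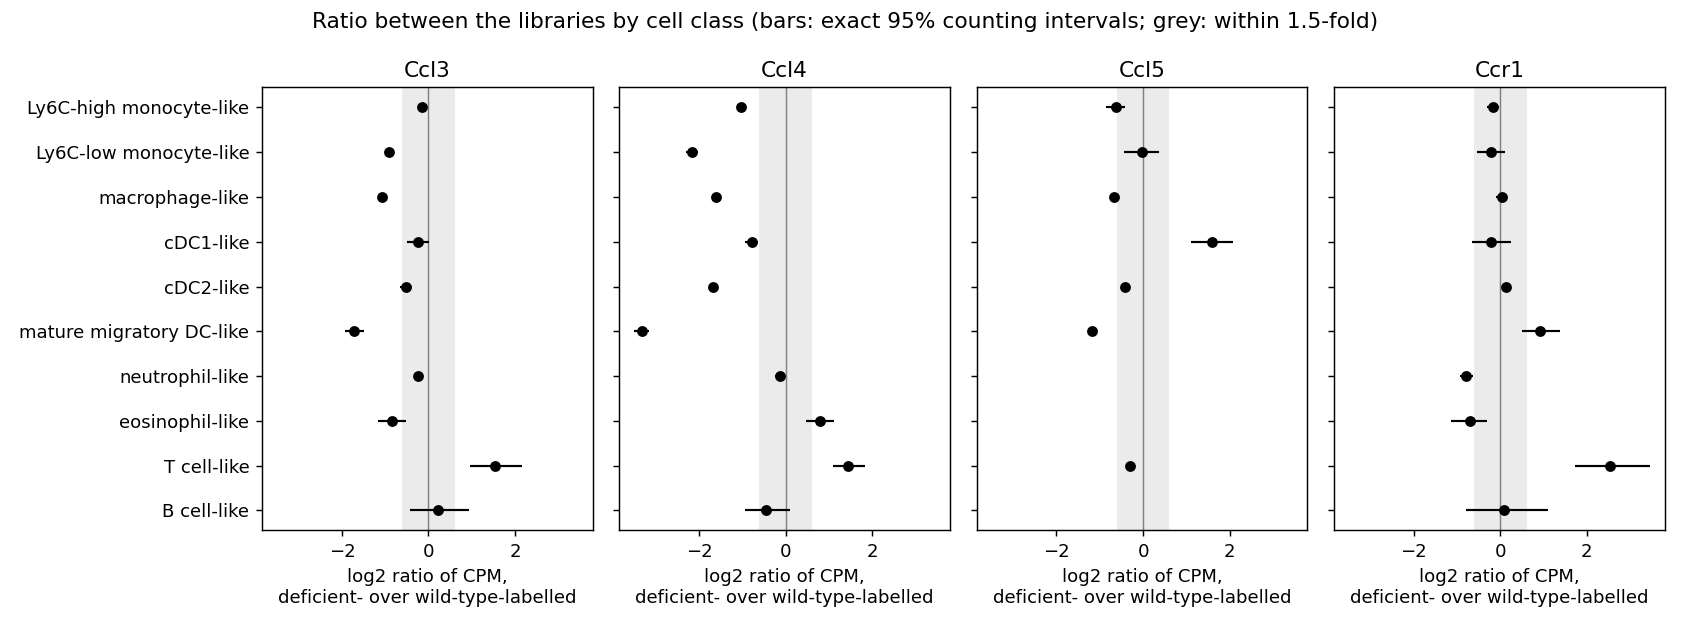
Log2 ratio of the deficient-labelled CPM to the wild-type-labelled CPM for each gene in the 10 compared classes, with exact 95% counting intervals as bars and the range within 1.5-fold in grey; a gene with under 50 UMIs in a class has no point. Ccl4 lies left of the grey band in 6 classes, from -0.78 in cDC1-like to -3.33 in mature migratory dendritic cell-like cells, while Ccr1 lies inside it in 6 classes.

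Counted over the 10 classes, Ccl4 was over 1.5-fold lower in 6 (Ly6C-high monocyte-like, Ly6C-low monocyte-like, macrophage-like, cDC1-like, cDC2-like and mature migratory dendritic cell-like cells) and higher in 2. Ccl3 was over 1.5-fold lower in 4 and higher in 1. Ccl5, measured in 7 classes, was lower in 3 and higher in 1. Ccr1 was lower in 2 classes, both granulocyte-like, and higher in 2. By class, the share of all measured genes over 1.5-fold lower ran from 4.95% in cDC2-like to 18.1% in eosinophil-like cells. The share over 1.5-fold higher ran from 5.47% in cDC1-like to 18.5% in T cell-like cells. In how many classes other genes passed that fold was not counted. The classes come from the same pair of libraries and are not replicates of each other.

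In NK cell or ILC1-like and T cell-like cells the Ccl5 levels of the libraries were within 1.5-fold of each other. In NK cell or ILC1-like cells 104 of 106 cells in the deficient-labelled and 37 of 39 in the wild-type-labelled library had a Ccl5 UMI. These cells were recognised by Ncr1, Eomes and other NK and ILC1 genes, and Gzma, Prf1 and Nkg7, which encode proteins of cytotoxic granules, were their leading genes. Ccl3 had 2164 and 3243 CPM there and Ccl4 5247 and 12383 CPM in the deficient-labelled and then the wild-type-labelled library, with 160 of the 640 Ccl3 UMIs and 551 of the 2444 Ccl4 UMIs of the wild-type-labelled library in 1 cell. In T cell-like cells Ccl5 had 1114 and 1363 CPM, a log2 ratio of -0.29 (-0.40 to -0.18). Cells with a Cd8a or Cd8b1 UMI and no Cd4 UMI had 1950 CPM of Ccl5 in 81 cells of the deficient-labelled and 1123 CPM in 20 cells of the wild-type-labelled library, while cells with a Cd4 UMI alone had 306 CPM in 92 cells and 40.2 CPM in 22 cells. The myeloid gene Lyz2 had 1713 and 227 CPM in the first group and 1221 and 201 CPM in the second, in the same order. With at most 10 UMIs of MHC class II genes per 10000, the first group kept 9 and 16 cells, with 3737 and 1402 CPM of Ccl5. The second kept 11 and 15 cells, with 5 and 1 Ccl5 UMIs, too few to read a difference. Cells with neither co-receptor had 1285 CPM in 152 cells of the deficient-labelled and 2154 CPM in 50 cells of the wild-type-labelled library, where they held 717 of the 877 Ccl5 UMIs of the class.

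Ccl3, Ccl4 and Ccr1 were over 1.5-fold higher in T cell-like cells of the deficient-labelled library, with log2 ratios of 1.53 (0.95 to 2.16), 1.45 (1.09 to 1.83) and 2.53 (1.73 to 3.45), beside 11.0% of measured genes lower and 18.5% higher. One cell held 34 of the 68 Ccl4 UMIs of the wild-type-labelled library, and with the wider margin between classes the Ccl4 ratio was 2.45 (1.91 to 3.04). As a mean over cells the Ccl3 ratio was 0.88, and Ccr1 was 3.26 with the wider margin and 1.88 by cluster majority. H2-Ab1 and the myeloid gene Lyz2 were also higher in this class, at 4871 and 1272 CPM in the deficient-labelled and 1495 and 171 CPM in the wild-type-labelled library. Among T cell-like cells with at most 10 UMIs of MHC class II genes per 10000, of which there were 40 in the deficient-labelled and 68 in the wild-type-labelled library, counts were too low to read a difference. Ccl3 had 19.0 CPM from 4 UMIs and 26.2 CPM from 11 UMIs there, Ccl4 had 23.8 CPM from 5 UMIs and 19.1 CPM from 8 UMIs, and Ccr1 had 19.0 CPM from 4 UMIs and 2.38 CPM from 1 UMI, in the deficient-labelled and then the wild-type-labelled library. With the class taken from the cluster majority the ratio was -0.00 for Ccl3 and -1.11 for Ccl4, so neither excess held there. Ccl5 in the cells with little MHC class II had 2122 CPM (1930 to 2328) in the deficient-labelled and 1911 CPM (1781 to 2048) in the wild-type-labelled library, with overlapping intervals. For B cell-like cells Ccl3, Ccl4 and Ccr1 had intervals that include no difference, beside 8.16% of measured genes lower and 15.3% higher.

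The number of Ccl4 UMIs per Ccl3 UMI, which does not depend on how much other RNA a class holds, separated the classes and the libraries. Each 3′ tag counts 1 transcript whatever its length, but the efficiency of capture of each gene is unknown, so the ratio is read between classes and not as a ratio of molecules. Macrophage-like cells had 2.63 (2.55 to 2.71) in the deficient-labelled and 3.83 (3.70 to 3.97) in the wild-type-labelled library. The ratio was lower in Ly6C-high monocyte-like cells, with 0.457 (0.432 to 0.483) in the deficient-labelled and 0.839 (0.789 to 0.891) in the wild-type-labelled library. cDC2-like cells had 2.31 (2.14 to 2.48) and 5.10 (4.75 to 5.48), and NK cell or ILC1-like cells 2.42 (2.26 to 2.60) and 3.82 (3.50 to 4.17), in the deficient-labelled and then the wild-type-labelled library. Neutrophil-like cells differed little, with 0.698 (0.645 to 0.756) and 0.647 (0.614 to 0.681), and eosinophil-like cells had the opposite order, with 1.29 (0.976 to 1.71) and 0.417 (0.356 to 0.487). In the 6 monocyte-like, macrophage-like and dendritic cell-like classes Ccl4 was lower by more than Ccl3 in the deficient-labelled library. That order did not hold everywhere: in Ly6C-low monocyte-like cells by cluster majority the log2 ratio was -0.95 for Ccl3 and -0.78 for Ccl4, and in cluster 1 of Ly6C-high monocyte-like cells it was -0.17 and -0.20 with overlapping intervals.

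**Figure D5:**
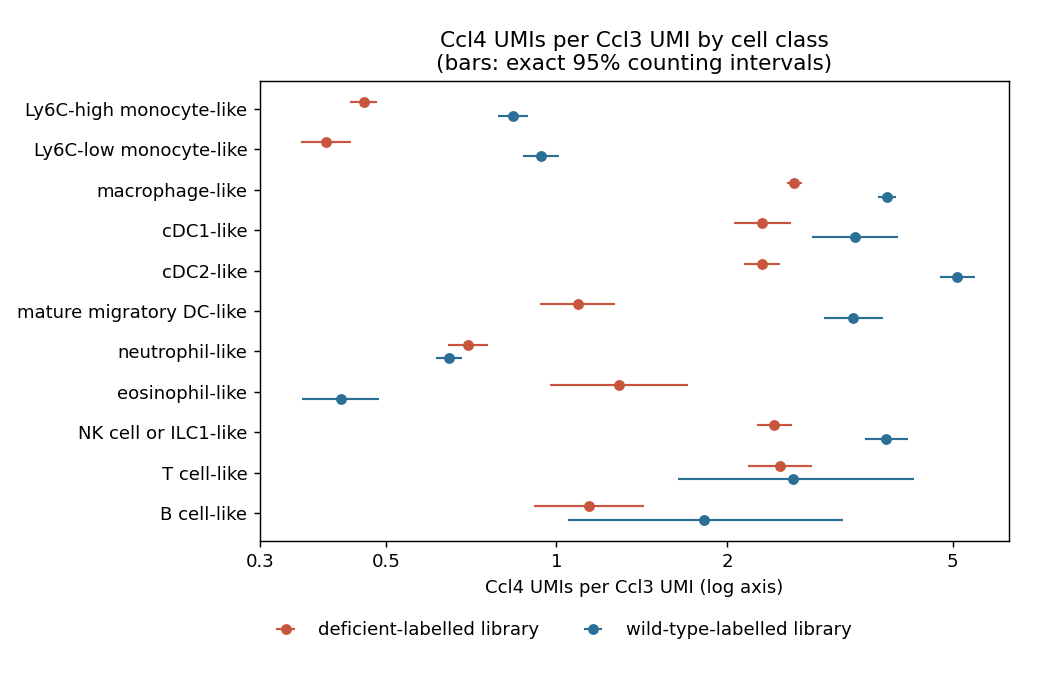
Ccl4 UMIs per Ccl3 UMI (log axis) in 11 cell classes, with the deficient-labelled library in red above the wild-type-labelled library in blue and exact 95% counting intervals as bars. Red lies left of blue without overlap in the 6 monocyte-like, macrophage-like and dendritic cell-like classes, for example at 2.63 and 3.83 in macrophage-like cells.

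Within a class, Ccl3 and Ccl4 tended to be found in the same cells, which describes cells of 1 library that share depth and free RNA. Among macrophage-like cells the Spearman correlation over cells of their UMIs per 10000 was 0.59 in the deficient-labelled and 0.75 in the wild-type-labelled library. Of macrophage-like cells with a Ccl3 UMI, 83.1% in the deficient-labelled and 95.9% in the wild-type-labelled library also had a Ccl4 UMI, against 49.4% and 60.4% of those without one. The cells with and without a Ccl3 UMI differed in median depth, at 8520 and 5722 UMIs in the deficient-labelled and 9118 and 2593 UMIs in the wild-type-labelled library. In NK cell or ILC1-like cells the correlation was 0.72 and 0.70, in Ly6C-high monocyte-like cells 0.42 and 0.46 and in neutrophil-like cells 0.24 and 0.35, in the deficient-labelled and then the wild-type-labelled library. Between Ccl3 and Ccr1 the correlation was 0.12 and 0.24 in macrophage-like cells, below the 0.59 and 0.75 between Ccl3 and Ccl4 there. Of macrophage-like cells with a Ccl3 UMI, 81.3% and 83.4% had a Ccr1 UMI, against 66.7% and 50.9% of those without one. In T cell-like cells the correlation between Ccl3 and Ccr1 was 0.30 and 0.18, and in NK cell or ILC1-like cells 0.03 and -0.27.

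Across the 20 points given by 10 classes in 2 libraries, which share libraries and are a description only, Ccl3 and Ccl4 had a Pearson correlation of 0.862 on the log2(CPM + 1) scale, Ccl3 and Ccr1 0.878 and Ccl3 and Ccl5 -0.093. Of 8038 other genes the pattern of Ccl3 was most like that of Lst1 (0.957), Rab20 (0.951) and Alas1 (0.947). Ccl4 was most like Oasl1 (0.890), Ppp1r15a (0.874), a regulator of the integrated stress response, and Il1a (0.871), an alarm cytokine. Ccl5 was most like Tmem176a (0.846), Nrip1 (0.846) and AW112010 (0.842), and Ccr1 most like Lilr4b (0.935), Fth1 (0.928), the heavy chain of ferritin, and Cd300lb (0.923).

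Other genes of the pathway were read from 5 lists in Ly6C-high monocyte-like and macrophage-like cells together. Of 4 other ligands of Ccr1, Ccl7 was over 1.5-fold lower, at 170 CPM in the deficient-labelled and 429 CPM in the wild-type-labelled library, a log2 ratio of -1.33 (-1.43 to -1.24). Ccl8 was over 1.5-fold higher, at 13.7 and 2.77 CPM from 138 and 12 UMIs, a log2 ratio of 2.30 (1.45 to 3.29), and Ccl6, at 686 and 922 CPM, and Ccl9 stayed within that fold. The list median was -0.38, against 0.01 over all measured genes. In macrophage-like cells alone 3 of these ligands, Ccl6, Ccl7 and Ccl9, were over 1.5-fold lower and Ccl8 higher, with a list median of -0.65 against 0.02. Of 5 other receptors, decoys and relatives, Ccrl2, a receptor that binds chemerin without signalling, had 415 and 589 CPM, a log2 ratio of -0.50 (-0.58 to -0.43), Ccr3 had 6.64 and 6.69 CPM, and Ackr1, Ackr2 and Ccr1l1 had no UMI in these cells.

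The 15 genes of the NF-kB response, the inducible program to which Ccl3 and Ccl4 belong, did not move one way. In 1 of them, Tnf, the level was over 1.5-fold lower, at 473 CPM in the deficient-labelled and 878 CPM in the wild-type-labelled library, a log2 ratio of -0.89 (-0.95 to -0.83). In 3 it was over 1.5-fold higher: Relb, an NF-kB subunit, at 97.5 and 53.1 CPM, Cd40, a costimulatory receptor, at 220 and 132 CPM, and Il1b, named after its values were seen, at 3463 and 2115 CPM, in the deficient-labelled and then the wild-type-labelled library. The list median was -0.09. In macrophage-like cells alone Tnf had 503 and 1218 CPM, a log2 ratio of -1.28 (-1.35 to -1.20) that lay between those of Ccl3 and Ccl4, and Il1b had 3803 and 2408 CPM, a log2 ratio of 0.66 (0.61 to 0.70). Of 12 dissociation and immediate-early genes, which can be induced while tissue is digested, 2 were over 1.5-fold lower and none higher, with a list median of -0.30. These were Egr1, at 213 and 441 CPM with a log2 ratio of -1.05 (-1.14 to -0.96), and Fos, at 483 and 748 CPM with -0.63 (-0.69 to -0.57), while Atf3 had 364 and 522 CPM with -0.52 (-0.60 to -0.45). In Ly6C-low monocyte-like cells 7 of these 12 genes were over 1.5-fold lower and none higher, with a median of -0.69 against 0.04 over all genes of the class, and in neutrophil-like cells 5 were lower and none higher, with a median of -0.33 against 0.01. In mature migratory dendritic cell-like cells 3 were lower and none higher. They went both ways in cDC1-like (2 lower, 1 higher), cDC2-like (1 and 3), eosinophil-like (2 and 5) and T cell-like cells (5 and 3). In B cell-like cells none was lower and 3 were higher. The list median was -0.11 in cDC2-like and 0.42 in eosinophil-like cells. Ccl3 and Ccl4 are themselves induced quickly, and the part of handling in their ratios was not tested. Of 8 cytotoxic lymphocyte genes only Klrd1 reached 50 UMIs, at 13.4 and 10.8 CPM, and the list summed to 28.2 CPM in the deficient-labelled and 14.5 CPM in the wild-type-labelled library.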

How the data were processed

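The deposited values are whole UMI counts per gene and barcode, made by the authors with Cell Ranger, with mm10 and STAR 2.5.1b named in the submitters' processing notes; the file headers give software version 3.0.2. Groups follow the genotype labels. The members and lists were chosen with earlier results of these data known.

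Barcodes with at least 500 UMIs, 200 genes and at most 20% mitochondrial UMIs were kept. A cell took the class with the highest mean standardized marker score (log2 of UMIs per 10000 + 1, limited to 5 standard deviations; 133 markers), if at least 2 markers were seen and the score led by 0.15. Classes with at least 50 cells per library and genes with at least 50 UMIs were compared. No doublets were removed in the values reported. Counts carry exact Poisson intervals, shares Clopper-Pearson intervals and ratios exact conditional binomial intervals. The ratio intervals were checked on simulated independent counts only, which lack the spread between cells of these data. The fold of 1.5 is a size, not a test. Alternatives were a wider margin of 0.3, a mitochondrial limit of 10% or none, at least 1000 UMIs, doublets removed by score, means over cells, the top 1% of cells left out, classes by cluster majority and equal weights for both classes. Named genes are the members, up to 3 per list by ratio, and the 3 most alike by correlation among genes with at least 500 UMIs. Scripts ran in Python 3.11.15 with scanpy 1.11.5, leidenalg 0.10.2, scipy 1.17.1 and numpy 2.4.6.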

Additional observations from a re-analysis of the deposited data

Results flagged for a closer look

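Several classes differed from others in the direction of a member's ratio between the deficient-labelled and the wild-type-labelled library by over 1.5-fold on each side, and these differences between classes were not tested. For Ccl3 the log2 ratio was 1.53 in T cell-like cells, against -0.90 in Ly6C-low monocyte-like, -1.07 in macrophage-like, -1.71 in mature migratory dendritic cell-like and -0.84 in eosinophil-like cells. For Ccl4 it was 0.79 in eosinophil-like and 1.45 in T cell-like cells, against -1.04 in Ly6C-high monocyte-like, -2.17 in Ly6C-low monocyte-like, -1.61 in macrophage-like, -0.78 in cDC1-like, -1.67 in cDC2-like and -3.33 in mature migratory dendritic cell-like cells. For Ccl5 it was 1.59 in cDC1-like cells, against -0.63 in Ly6C-high monocyte-like, -0.66 in macrophage-like and -1.19 in mature migratory dendritic cell-like cells. For Ccr1 it was 0.92 in mature migratory dendritic cell-like and 2.53 in T cell-like cells, against -0.79 in neutrophil-like and -0.70 in eosinophil-like cells.

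Signal also appeared in classes too small to compare, where the lower bound of a level was over 10 times the upper bound of the B cell-like level of the same library. Mast cell or basophil-like cells had 22452 CPM of Ccl3 in the deficient-labelled and 11356 CPM in the wild-type-labelled library, and 21955 and 27742 CPM of Ccl4. For Ccl5 this held in the wild-type-labelled library alone. In fibroblast-like cells Ccl5 had 115 CPM in the deficient-labelled and 406 CPM in the wild-type-labelled library, where 1 cell held 53.8% of its UMIs. In epithelial-like cells it had 49.9 and 265 CPM in the same order, and 1 wild-type-labelled cell held 61.7%. Just short of that bar was Ccl4 in ILC2-like cells, with 836 CPM from 140 UMIs in the deficient-labelled library, 55.0% of them in 1 cell, and 29.9 CPM from 2 UMIs in the wild-type-labelled library.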

How the results depend on the processing

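In Ly6C-high monocyte-like and macrophage-like cells together, the log2 ratios of Ccl3, Ccl4 and Ccl5 kept their sign under all 9 alternatives, within -0.71 to -0.57, -1.54 to -1.27 and -0.65 to -0.39. Ccl3 was over 1.5-fold lower in 7 of 9, Ccl4 in 9 and Ccl5 in 3. Ratios moved beyond counting error with a wider margin (Ccl3 -0.71, Ccl4 -1.40), as a mean over cells (Ccl3 -0.57, Ccl4 -1.27, Ccl5 -0.39), with both classes weighted equally (Ccl4 -1.54, Ccl5 -0.65) and with the class of the cluster majority (Ccl3 -0.58, Ccl5 -0.39). Ccr1 stayed between -0.08 and 0.03.

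No alternatives were run for cDC1-like, eosinophil-like and B cell-like cells, so their ratios have no such check. In the other single classes compared, of 220 alternative values over 27 results, 166 lay within the counting interval and 51 moved beyond it. In 3, all in T cell-like cells, a ratio past 1.5-fold changed sign. There Ccl3 was -0.00 and Ccl4 -1.11 with the class of the cluster majority, and Ccl3 was -0.46 among cells with little MHC class II, an alternative chosen after seeing the data. The cause was not tested. Ccl5 in Ly6C-low monocyte-like cells, at -0.03, was between 0.10 and 1.18 under its 8 alternatives. Other ratios within 1.5-fold also changed sign: Ccl3 in neutrophil-like cells was 0.02 by cluster majority, and Ccl5 in T cell-like cells was 0.06 as a mean over cells and 0.15 among cells with little MHC class II. Removing 278 cells of the deficient-labelled and 54 of the wild-type-labelled library by doublet score left Ccl4 in macrophage-like cells within its interval. No paired analysis was possible because each group is 1 library. Ccl5 in granulocyte-like and Ccr1 in NK cell or ILC1-like cells rest on few UMIs.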

Other observations

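High Ccl3 and Ccl4 for their size were also found in 3 mast cell or basophil-like cells, which had UMIs of Cpa3, Gata2 and, in 1 of them, Mcpt8. The markers Mcpt1 and Mcpt2 had no UMI in any of them, and Fcer1a and Ms4a2 had UMIs in the wild-type-labelled cell only. In the cell with the most Ccl3 the class rests on 2 UMIs of Cpa3 and 6 of Gata2. The cells of the deficient-labelled library held 145 Ccl3 and 135 Ccl4 UMIs of 3353, and 81 Ccl3 and 86 Ccl4 UMIs of 6713. In the wild-type-labelled library the single cell held 70 Ccl3 and 171 Ccl4 UMIs of 6164. Ccr1 had 2 UMIs in 1 of these cells and none in the others. So few cells allow no comparison between the libraries.

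Cells without a class held a fair part of the members' RNA, at 487 CPM of Ccl4 in 1217 cells of the deficient-labelled and 1017 CPM in 523 cells of the wild-type-labelled library. Ccl3 had 363 and 399 CPM in them, Ccl5 220 and 226 CPM and Ccr1 200 and 205 CPM, in the deficient-labelled and then the wild-type-labelled library.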
